A study of Mus musculus with 20 samples.

Results

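H3K4me1, the monomethylation of lysine 4 of histone H3, was compared between fetal and adult hematopoietic stem cells (HSCs) through the peak lists that the authors deposited for the mark. Every H3K4me1 peak on chromosomes 1 to 19 was taken, which gave 92339 fetal and 12502 adult peaks, or 104841 of the 219055 peaks in the 8 lists of the series. Fetal cells came from liver at embryonic day 14.5 and adult cells from the bone marrow of mice aged 6 to 8 weeks. Both groups were B6129SF1 mice without a stated genotype or treatment, and both were sorted by the same gate (Lin-, Sca1+, cKit+, CD135-). This gate uses no SLAM marker, so early progenitors can be included beside HSCs at either stage. Each ChIP used 50000 sorted cells, and 2 replicates per stage stand behind each list.

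H3K4me1 is placed by the methyltransferases MLL3 and MLL4 and marks enhancers and the flanks of active promoters. An enhancer with H3K4me1 alone is usually described as primed, and one that also carries H3K27ac as active. H3K4me3 occupies the promoter itself, and H3K27me3 is the mark of Polycomb repression. Fetal liver HSCs divide and expand, whereas most adult marrow HSCs are quiescent.

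Each stage is represented by 1 combined list without replicates, and tissue, age and library change together. The stages cannot therefore be told apart from their libraries and peak calls, and no test across samples was possible. The depth behind the lists is unknown. Intervals in parentheses are 95% exact Clopper-Pearson intervals, which cover counting error over peaks only, and neighbouring peaks are not independent. Coordinates are mm9 and 1-based. Genes are not named because the gene annotation at hand is of another build, and for the same reason the sorted cells could not be checked against marker genes.

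The adult list was shorter and its peaks were narrower. Fetal peaks covered 57.2 Mb with a median width of 430 bp, with quartiles of 295 and 713 bp. Adult peaks covered 2.81 Mb with a median width of 193 bp and quartiles of 163 and 252 bp. The authors' score, a value from their peak caller with no stated unit, began at 50 in both lists and had medians of 117 in the fetal and 62.0 in the adult list. Scores are used below only to rank peaks within 1 list. A fetal peak had a median of 12 other fetal peaks within 50 kb, and an adult peak a median of 3 other adult peaks.

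A fetal peak was called recovered when it shared at least 1 bp with an adult peak. Of the 92339 fetal peaks, 8546 were recovered, a background of 9.26% against which every share of fetal peaks below is read. In the other direction 10934 adult peaks, or 87.5% (86.9 to 88.0), touched a fetal peak. The remaining 1568 adult peaks, 12.5% of the list, had none. With the 12502 best-scoring peaks of each stage, recovery was 37.5% and the share of adult peaks without a fetal peak 43.2%. When a gap of up to 1 kb also counted as a match, these shares were 16.7% and 5.28%. Adult peaks were narrower at each quartile, and the part of this in the recovery was not tested.

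Adult peaks were mostly short pieces inside longer fetal peaks. Of the matched adult peaks, 86.0% lay wholly within a fetal peak, and 212 bridged 2 fetal peaks. Among recovered fetal peaks 80.1% held 1 adult peak, 13.9% held 2, and 6.05% held 3 or more. The adult pieces covered a median of 21.3% of a recovered fetal peak (quartiles 13.4% and 32.6%), and 622 recovered peaks, 7.28%, were covered over at least 50% of their length. Where 1 fetal peak held several adult pieces, the midpoints of neighbouring pieces were a median of 544 bp apart, with quartiles of 352 and 904 bp, and the median gap between them was 281 bp.

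Where in the fetal peak the adult piece lay was read from its midpoint. Among fetal peaks of 1200 to 2400 bp with a single adult piece, the midpoint of that piece fell in the central 3 of 5 equal segments for 74.0% of 1958 peaks, in the 2 end segments for 24.1%, and beyond the fetal peak for 1.89%. Fetal peaks of 600 to 1200 bp gave almost the same division, with 74.0%, 21.7% and 4.34% of 2467 peaks. In narrower fetal peaks the central segments held fewer, with 58.2% of 1564 single pieces in peaks of 300 to 600 bp and 44.1% of 356 in peaks under 300 bp, where 32.9% had their midpoint outside the fetal peak. A piece that lies wholly inside is kept from the ends by its own width, so a midpoint in the central segments is not by itself a preference for the middle.

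The fetal peak that overlapped most adult peaks illustrates this form. It lies on chromosome 9 from 32309614 to 32319681, is 10068 bp wide and held 14 adult peaks of 143 to 518 bp, which together covered 4130 bp or 41.0% of it. Fetal H3K27ac covered 9261 bp of it and adult H3K27ac 4464 bp, without H3K4me3 or H3K27me3 at either stage. The adult pieces were spread over nearly the whole fetal peak, the first beginning 150 bp and the last ending 9360 bp from its start.

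**Figure D1:**
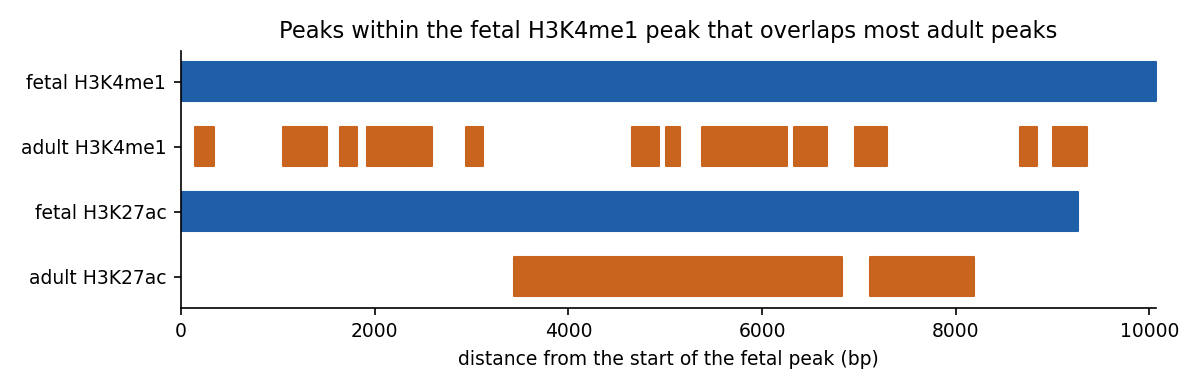
Peaks inside the fetal H3K4me1 peak with the most adult peaks, drawn to scale along the distance in bp from its start, with fetal lists in blue and adult lists in orange. The 14 adult H3K4me1 peaks cover 41.0% of the 10068 bp, and some adjoining pieces run together at this scale.

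Width separated recovered from unrecovered fetal peaks. The median width was 1095 bp for recovered and 406 bp for unrecovered peaks. Of the narrowest quintile (127 to 271 bp) 1.32% (1.16 to 1.50) had an adult peak. The shares in the next 3 quintiles were 2.71%, 4.22% and 8.45%. The widest quintile, with peaks of 819 bp and over, reached 29.6% (29.0 to 30.3) and contained 5469 recovered peaks, 64.0% of all that were recovered. It also held 7949, or 72.7%, of the matched adult peaks. The difference between the widest and the narrowest quintile was 28.3 percentage points (27.6 to 29.0, normal approximation for this and the other differences).

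A wider peak offers more bases for a match, so the share of fetal length covered by adult peaks was measured too. Adult peaks covered 0.656% of the length of the narrowest quintile and 6.96% of that of the widest. With every fetal peak replaced by 400 bp around its midpoint, the difference between the outer quintiles was 16.0 points in place of 28.3. The gradient was thus also present per base and with equal lengths.

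The score ranked fetal peaks almost as width did. Recovery was 1.55% (1.38 to 1.74) in the lowest and 30.3% (29.7 to 31.0) in the highest quintile, a difference of 28.8 points (28.1 to 29.5). It was 50.8 points with the 12502 best-scoring peaks of each stage and 16.7 with fetal peaks of 400 bp. At the far end of both rankings most peaks were recovered. Of the 100 widest fetal peaks 95 had an adult peak, and of the 111 peaks with a score of 3100 or more 108 did. Of the 1000 widest peaks, all of at least 2881 bp, 78.8% (76.1 to 81.3) were recovered, and of the 5000 widest 53.5% (52.1 to 54.9). At the other end, 21 of the 1958 peaks narrower than 200 bp were recovered, 1.07% (0.665 to 1.63).

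**Figure D2:**
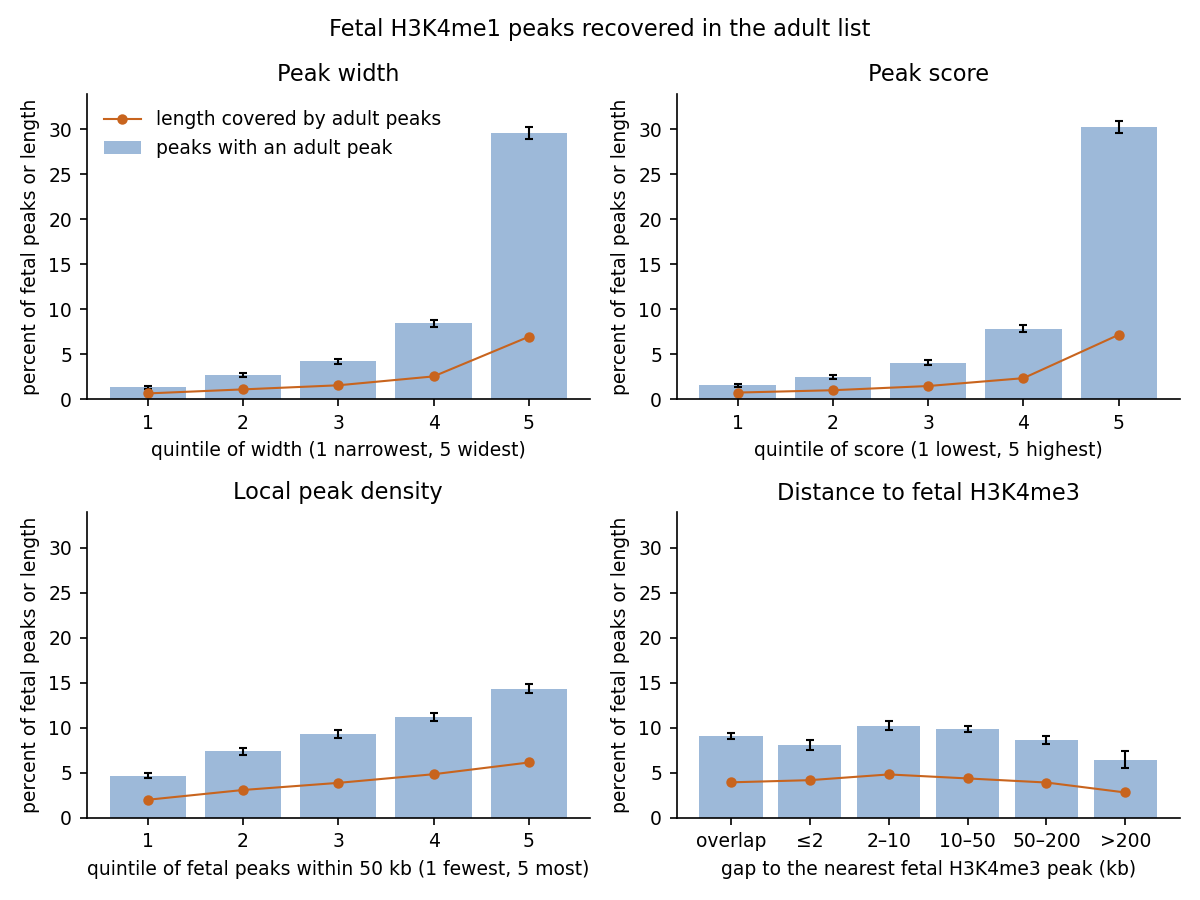
Percent of fetal H3K4me1 peaks with an adult peak (bars, with 95% Clopper-Pearson intervals) and percent of fetal length covered by adult peaks (orange points) by quintile of width, score and local density and by gap to fetal H3K4me3 in kb. Recovery reached 29.6% in the widest and 30.3% in the best-scoring quintile, against 14.3% in the densest, and lay between 6.44% and 10.2% over the distance classes.

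Fetal peaks in crowded neighbourhoods were recovered more often. With 5 or fewer other fetal peaks within 50 kb, 4.70% (4.41 to 5.003) of peaks had an adult peak, and with 22 or more 14.3% (13.8 to 14.9), a difference of 9.63 points (9.05 to 10.2). It was 17.3 points with equal numbers of top-ranked peaks, 17.8 when a gap of up to 1 kb counted and 6.02 with fetal peaks of 400 bp. Density went with width, the median width being 368 bp in the sparsest and 505 bp in the densest quintile. In the narrowest width quintile, recovery was 1.19% (0.922 to 1.52) in the sparsest and 1.56% (1.13 to 2.09) in the densest surroundings, so the intervals overlapped. In the widest quintile it was 18.7% (16.9 to 20.5) and 36.9% (35.6 to 38.2). Even there the denser peaks were wider, with medians of 1329 bp in the densest and 1046 bp in the sparsest surroundings.

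Density was then compared among peaks of like width and score. The quintiles of width and score made 25 combinations, of which 14 held at least 100 peaks on either side of their median density, with 99.5% of fetal peaks in all. The denser side had the higher recovery in 8 of the 14 and the lower in 6, with a median difference of 0.488 points. The largest difference, 10.2 points, was in the combination of widest and best-scoring peaks, where 37.5% of the denser and 27.3% of the sparser peaks were recovered. That combination still spans all widths from 819 bp up, so width was not held equal within it.

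Recovery was also clustered along the chromosome. When the next fetal peak on the chromosome was recovered, 18.3% of fetal peaks were recovered themselves, and when it was not, 8.33%. For neighbours up to 1 kb apart these shares were 24.3% and 10.01%, and for neighbours over 20 kb apart 7.32% and 5.15%. An adult peak that bridges neighbouring fetal peaks makes both recovered at once, and the 212 bridging adult peaks were not left out. The widest adult peak had 2427 bp, so none bridged a gap over 20 kb. Width and density were not held equal in these shares, and their part in the clustering was not tested. Between chromosomes, recovery ranged from 7.99% (7.21 to 8.83) on chromosome 3 to 11.3% (10.6 to 12.1) on chromosome 11. Chromosome 11 also had the highest median density, with 15 other fetal peaks within 50 kb, against 10 on chromosome 3, and the widest median peak, at 458 bp against 409 bp.

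Distance to a promoter mark separated the peaks little. Of the fetal peaks that overlapped a fetal H3K4me3 peak, 9.09% (8.74 to 9.45) were recovered. The share was 8.08% (7.54 to 8.65) with a gap of up to 2 kb, 10.2% (9.74 to 10.7) from 2 to 10 kb, 9.89% (9.53 to 10.3) from 10 to 50 kb and 8.66% (8.20 to 9.14) from 50 to 200 kb. The 2563 peaks more than 200 kb away gave 6.44% (5.52 to 7.46), and they were also narrow, with a median of 344 bp. Overlapping peaks exceeded those more than 50 kb away by 0.777 points (0.229 to 1.33). That sign was not stable, since the difference was -1.64 points (-2.43 to -0.847) above the median score of both lists, -1.60 (-4.31 to 1.12) with the 12502 best-scoring peaks of each stage and -1.31 (-2.01 to -0.616) when a gap of up to 1 kb also counted as a match.

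Within the same quintiles of width and score, peaks on H3K4me3 were usually recovered less often than the others. H3K4me1 peaks that overlapped H3K4me3 had a median width of 500 bp against 406 bp elsewhere. In 12 of 14 combinations of width and score with at least 100 peaks on either side, those overlapping H3K4me3 had the lower recovery, with a median difference of -1.24 points and a range from -4.85 to 1.15. Among the widest and best-scoring peaks the shares were 29.5% with and 33.4% without H3K4me3, again without width held equal within that combination. Farthest from the promoter mark among recovered peaks was one on chromosome 14 from 86364916 to 86365196. It is 281 bp wide, lies 1174622 bp from the nearest H3K4me3 peak, and 1 adult peak covered 157 bp of it. The adult peak that matched it scored below the adult median, and with only the better-scoring adult peaks the match was lost.

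Around promoters the adult mark covered a smaller share of the fetal H3K4me1 under H3K4me3 than of its flanks. Of the fetal H3K4me1 peaks wholly under a fetal H3K4me3 peak, 3.48% (3.14 to 3.84) of 10810 were recovered. Of those that crossed an edge of H3K4me3, 13.2% (12.7 to 13.7) of 14797 were recovered, although these were also wider, with a median of 662 bp against 367 bp. Within the edge-crossing peaks, adult H3K4me1 covered 3.71% of the length under H3K4me3 and 6.19% of the length outside it. In peaks wholly under H3K4me3 it covered 1.46%.

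**Figure D3:**
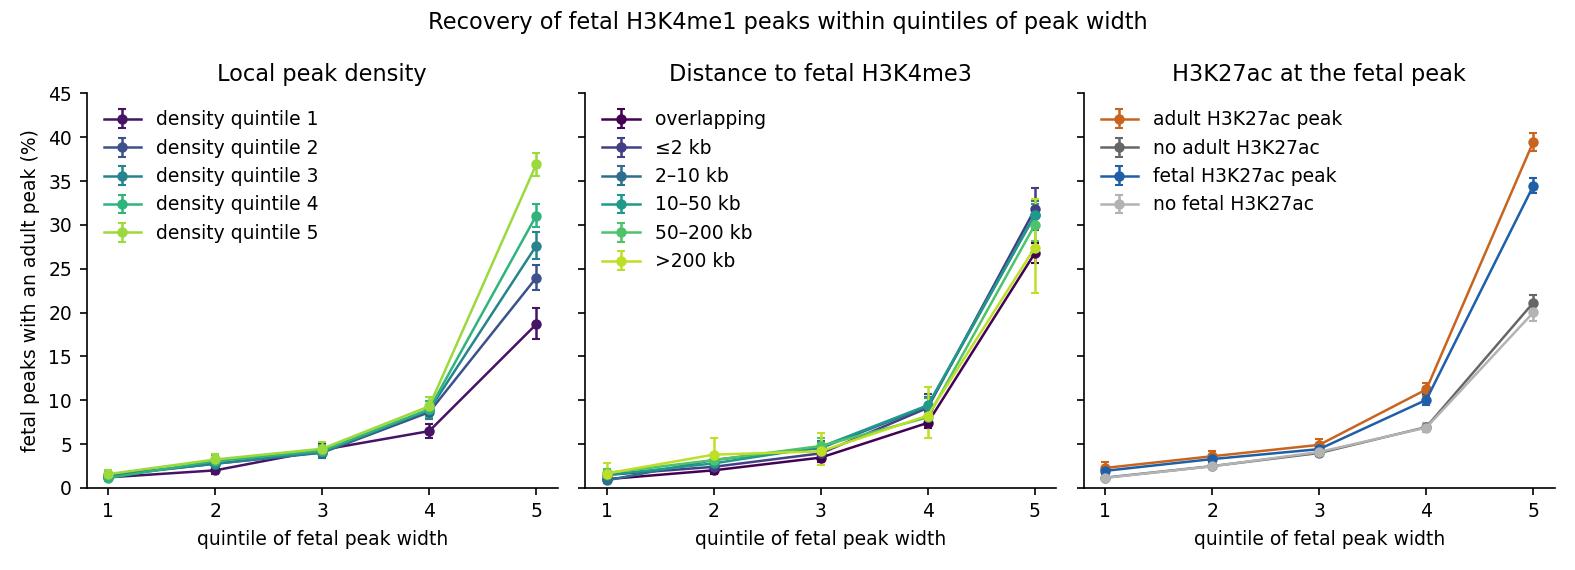
Percent of fetal H3K4me1 peaks with an adult peak within each quintile of width (1 narrowest, 5 widest), split by density quintile (1 sparsest), by gap to fetal H3K4me3 and by H3K27ac at either stage, with 95% Clopper-Pearson intervals. In the widest quintile the density lines spread from 18.7% to 36.9% and the distance lines from 26.8% to 31.8%, and adult H3K27ac separates 39.5% from 21.1%.

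H3K27ac, which marks active enhancers and promoters, accompanied recovered peaks. A fetal H3K27ac peak overlapped 66.9% (65.9 to 67.9) of recovered and 38.8% (38.5 to 39.1) of unrecovered fetal peaks, a difference of 28.1 points (27.1 to 29.2), or 18.3 points above the median score of all lists. Adult H3K27ac overlapped 53.0% (52.0 to 54.1) and 25.9% (25.6 to 26.2). H3K4me3 did not show such a gap, at 27.2% (26.3 to 28.2) of recovered and 27.8% (27.5 to 28.1) of unrecovered peaks in the fetal list. That difference of -0.541 points (-1.53 to 0.451) was -6.69 when the midpoint of the H3K4me1 peak had to lie in H3K4me3 and -7.02 above the median score of all lists. Fetal H3K27me3 overlapped 7.21% (6.67 to 7.78) and 9.50% (9.30 to 9.70).

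Acetylated peaks were wider, with a median of 578 bp against 369 bp without fetal H3K27ac, so the comparison was repeated within width quintiles. In the widest quintile 34.5% (33.6 to 35.3) of peaks with and 20.02% (19.03 to 21.04) of peaks without fetal H3K27ac were recovered. For adult H3K27ac these shares were 39.5% (38.5 to 40.5) and 21.1% (20.3 to 22.0). Acetylated peaks were still wider within this quintile, so width was not held equal. The medians were 1281 against 1096 bp for fetal and 1294 against 1144.5 bp for adult H3K27ac. In the middle quintile the gap for fetal H3K27ac was small, at 4.42% (3.94 to 4.93) against 4.10% (3.74 to 4.48). Over 14 combinations of width and score with enough peaks, the side with fetal H3K27ac had the higher recovery in 13. The median difference was 1.12 points, with a range from -0.984 to 14.5. Peaks with fetal H3K27me3 had the lower recovery in 9 of 13 combinations, with a median difference of -0.425 points. In the widest quintile 22.5% (20.5 to 24.7) of them were recovered against 30.3% (29.6 to 31.0) of the rest, with median widths of 1111 and 1213 bp.

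Distal peaks, defined as fetal H3K4me1 peaks without H3K4me3 at either stage, were split by H3K27ac at the same place. With H3K27ac at both stages, 35.4% (34.2 to 36.6) of 6285 peaks had an adult H3K4me1 peak. With H3K27ac in the adult list only, 22.9% (20.6 to 25.3) of 1269 did, and with H3K27ac in the fetal list only, 11.3% (10.8 to 11.9) of 12376. Of the 44889 distal peaks without H3K27ac, 4.60% (4.41 to 4.80) were recovered. This class includes the peaks usually called primed, but its definition does not leave out peaks with H3K27me3. Median widths differed between these classes, at 907, 519, 549 and 360 bp in the same order. In the widest quintile alone the order of the classes was the same, with 53.0% (51.3 to 54.6), 46.5% (41.3 to 51.7), 25.05% (23.7 to 26.4) and 18.2% (17.1 to 19.4). Width was not held equal there either, since the median widths were 1536, 1252.5, 1251 and 1084 bp.

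**Figure D4:**
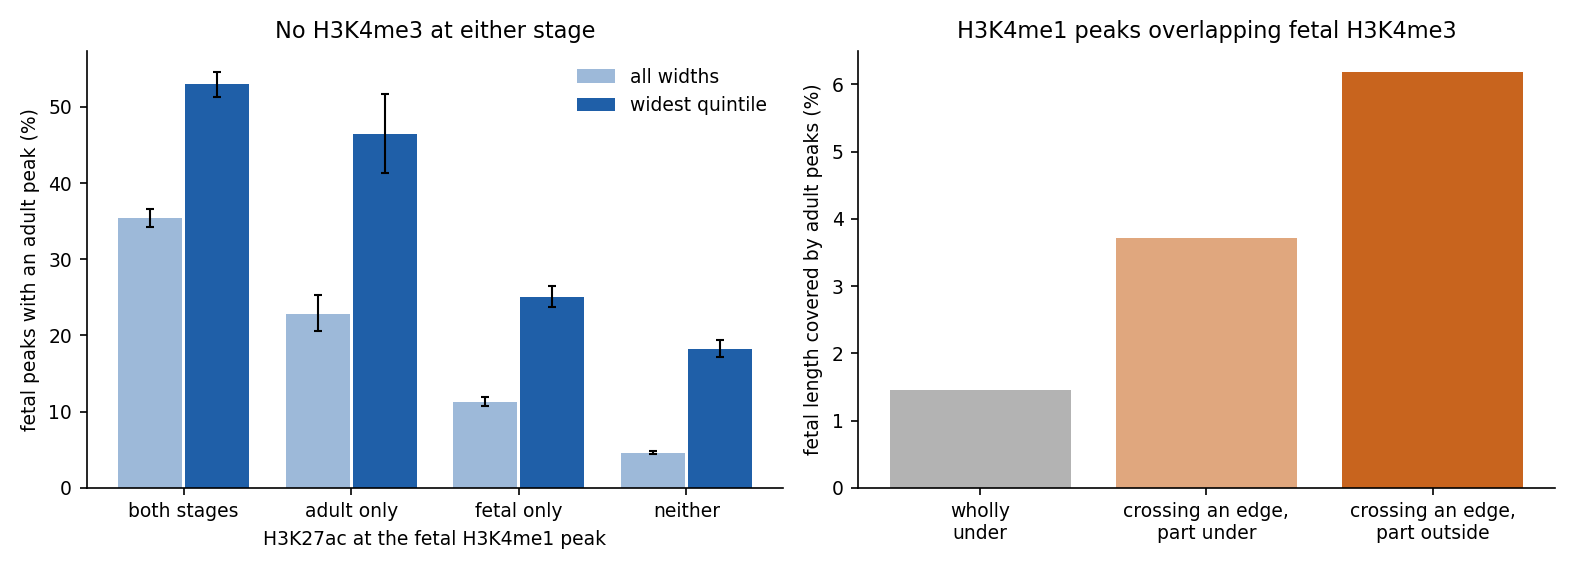
Left, percent of fetal H3K4me1 peaks without H3K4me3 that have an adult H3K4me1 peak, by H3K27ac at the place, over all widths and in the widest quintile, with 95% Clopper-Pearson intervals. Right, percent of fetal H3K4me1 length covered by adult H3K4me1 for peaks wholly under fetal H3K4me3 (1.46%) and for the parts of edge-crossing peaks under (3.71%) and outside it (6.19%).

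Some fetal peaks missing from the adult H3K4me1 list carried another adult mark. Of the 83793 unrecovered fetal peaks, 36.7% (36.4 to 37.1) overlapped an adult peak of H3K4me3, H3K27ac or H3K27me3, against 59.5% (58.5 to 60.6) of recovered and 38.8% of all fetal peaks. Of the 12998 unrecovered peaks in the widest quintile, 39.7% (38.9 to 40.6) overlapped adult H3K27ac. This was a lower share than in the whole quintile, where 8531 of 18467 peaks did, and than among its recovered peaks, where 3369 of 5469 did. The 3 best-scoring unrecovered peaks, each with a score of 3100, differed in the adult H3K27ac beside them. The first, on chromosome 19 from 32326271 to 32332561, is 6291 bp wide and had 4977 bp under fetal and 2544 bp under adult H3K27ac. Its nearest adult H3K4me1 peak was 1414 bp away, and it had 34 other fetal peaks within 50 kb. The second, on chromosome 12 from 109868293 to 109873664, is 5372 bp wide, had 3816 bp under fetal H3K27ac and overlapped no adult peak of any mark. It lies 118 bp from a fetal H3K4me3 peak and 17461 bp from the nearest adult H3K4me1 peak. The third, on chromosome 2 from 153368552 to 153373523, is 4972 bp wide, with 2188 bp under fetal and 1686 bp under adult H3K27ac and an adult H3K4me1 peak 13805 bp away.

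The 3 best-scoring recovered peaks were of similar width. The first, on chromosome 19 from 4294617 to 4300403 (5787 bp), held 10 adult peaks over 40.3% of its length and was under H3K27ac over 5787 bp in the fetal and 5561 bp in the adult list. The second, on chromosome 9 from 55950380 to 55954940 (4561 bp), held 4 adult peaks over 23.0% of its length. The third, on chromosome 15 from 73563092 to 73567938 (4847 bp), held 2 adult peaks over 16.3%. High-scoring, multi-kilobase fetal peaks were thus found on either side of the match, though 108 of the 111 scoring 3100 or more were recovered. Fetal H3K27ac lay over part or all of each of these 6 peaks. Fetal H3K4me3 lay over 933 bp of the first and 560 bp of the third recovered peak, and over none of the 3 unrecovered peaks.

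Better-scoring adult peaks more often lay on high-scoring fetal peaks. Each matched adult peak was paired with the fetal peak it shared most bases with. For 63.4% (61.3 to 65.5) of the lowest quintile of adult scores, that fetal peak was in the best-scoring quintile of its own list. The next quintiles gave 68.3%, 68.9% and 76.6%, and the highest 87.5% (86.2 to 88.8). Of all recovered fetal peaks, 65.5% were in that best-scoring quintile. The median width of the paired fetal peak was 1134 bp in the lowest and 1879 bp in the highest quintile of adult scores. Adult peak width was not held equal. Adult H3K27ac lay on 42.4% of the matched adult peaks of the lowest and 64.0% of those of the highest quintile. The 3 best-scoring adult peaks were each wholly inside a fetal peak, away from H3K4me3 and acetylated at both stages. They lie on chromosome 11 from 98811286 to 98812238, on chromosome 7 from 31946470 to 31947646 and on chromosome 10 from 80156643 to 80157603, and are 953, 1177 and 961 bp wide.

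Adult peaks without a fetal peak came mainly from the weak end of the adult list. Their median width was 170 bp, against 199 bp for matched adult peaks. By score quintile, 18.9% (17.4 to 20.5) of the lowest, then 17.9%, 13.4% and 8.76%, and 3.76% (3.05 to 4.58) of the highest had no fetal peak. By width the share was 20.6% (19.02 to 22.2) in the narrowest and 3.48% (2.80 to 4.28) in the widest quintile. Leaving the matching fetal peak itself out of the count, the share was 29.0% (26.6 to 31.5) where 1 to 5 other fetal peaks lay within 50 kb and 6.03% (5.34 to 6.78) where more than 20 did. By distance to the promoter mark it was 8.51% (7.29 to 9.85) for adult peaks that overlapped adult H3K4me3 and 29.5% (23.8 to 35.7) for the 241 that were more than 200 kb from it. Score, width, density and distance were each taken alone here, without the others held equal.

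Most of these peaks were still close to fetal H3K4me1. The median gap to the nearest fetal peak was 613 bp. A fetal peak was within 100 bp of 276 of them, or 17.6% (15.7 to 19.6), and within 1 kb of 908, or 57.9% (55.4 to 60.4). The share within 1 kb was 15.0% with equal numbers of top-ranked peaks. Of the rest, 385 were 1 to 10 kb away, 208 were 10 to 50 kb away, and 67, or 4.27% (3.33 to 5.39), were more than 50 kb away. With the full lists of 92339 fetal and 12502 adult peaks, adult peaks more than 10 kb from any fetal peak thus made up a small part of the adult list. With equal numbers of top-ranked peaks, 43.2% of adult peaks had no fetal peak. How much of the closeness follows from the longer fetal list was not tested.

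**Figure D5:**
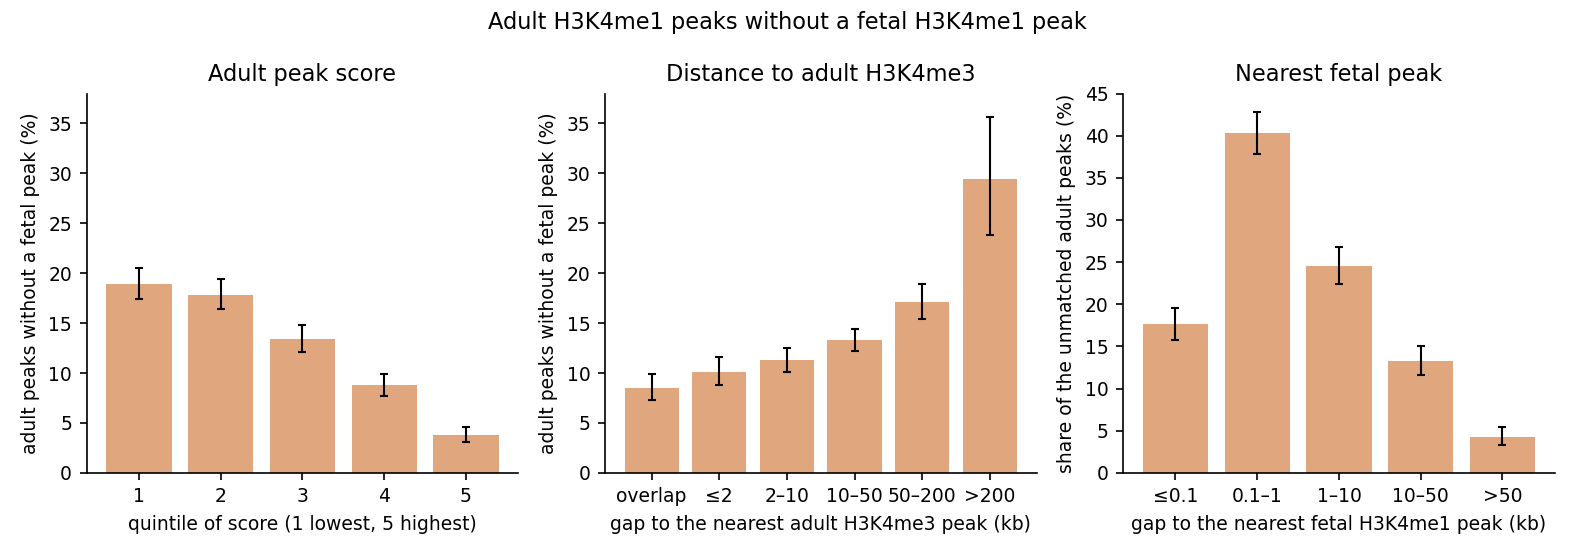
Percent of adult H3K4me1 peaks without a fetal peak by quintile of adult score and by gap to adult H3K4me3 in kb, and percent of the 1568 unmatched peaks by gap to the nearest fetal H3K4me1 peak in kb, with 95% Clopper-Pearson intervals. The share without a fetal peak was 18.9% in the lowest and 3.76% in the highest score quintile, and 17.6% of the unmatched peaks had a fetal peak within 100 bp.

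Another mark was found less often at the unmatched adult peaks. Adult H3K27ac overlapped 15.6% (13.9 to 17.5) of them, against 49.5% (48.5 to 50.4) of matched adult peaks, a difference of 33.9 points (31.8 to 35.9), or 20.8 points above the median score of all lists. Adult H3K4me3 overlapped 10.3% (8.81 to 11.9) against 15.8% (15.2 to 16.5), a difference of 5.57 points that was 0.322 above the median score, and adult H3K27me3 3.44% (2.598 to 4.47) against 3.45% (3.11 to 3.81). Fetal H3K27me3 overlapped 6.44% (5.28 to 7.77) of unmatched and 5.41% (4.99 to 5.85) of matched peaks. Unmatched peaks were also narrower, with a median width of 170 against 199 bp, and width was not held equal. Any of the 3 marks at either stage was present at 31.9% (29.6 to 34.3) of unmatched and 76.0% (75.2 to 76.8) of matched peaks. The share with any of them was 40.0% (36.8 to 43.2) for unmatched peaks within 1 kb of a fetal peak and 18.2% (13.8 to 23.3) for the 275 with none within 10 kb.

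Unmatched adult peaks were scattered over the genome. They fell in 878 of the 1538 bins of 1 Mb that held an adult peak, and 486 of these 878 held a single one. The bin with most, from 97 to 98 Mb on chromosome 8, had 9 among 27 adult and 129 fetal peaks. The bin from 85 to 86 Mb on chromosome 10 had 8 among 10 adult peaks and 36 fetal peaks, 2 of which were recovered. After these, 3 bins had 7 each, from 117 to 118 Mb on chromosome 11, from 124 to 125 Mb on chromosome 8 and from 44 to 45 Mb on chromosome 17.

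The 3 best-scoring unmatched adult peaks ranked between 306 and 371 of the adult list. The first, on chromosome 15 from 58580957 to 58581290 (334 bp), was covered by H3K27ac at both stages over its whole length and lay 102 bp from a fetal H3K4me1 peak. The second, on chromosome 11 from 3031833 to 3033206, is wide for an adult peak at 1374 bp, carried no other mark at either stage and was 25322 bp from the nearest fetal peak. The third, on chromosome 4 from 101163374 to 101163821 (448 bp), carried no other mark either and was 5583 bp from the nearest fetal peak.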

How the data were processed

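Per the submitters' processing notes, reads were aligned with Bowtie2 2.2.2 to mm9. Peak names in the deposited lists carry the prefix MACS. The caller's version, settings and control are not given in the sources used here. The deposited score in each list is the authors' own value per peak. The lists are titled as combined and were taken as 1 call on pooled replicates, so labels' replicate numbers carry no values, and read counts and inputs were not analysed here.

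Peaks on chromosomes 1 to 19 were used as listed. Quintiles were cut at quantiles of the values with ties kept together. Density counted other peaks of the same list with midpoints within 50 kb of the midpoint. Distance was the gap to the nearest H3K4me3 peak of the same stage. Members, comparisons and alternatives were chosen with earlier results of these data known. Peaks with coordinates were named by rank, namely the 3 best-scoring with and without a match per list, the fetal peak with most adult peaks, the recovered one farthest from H3K4me3, and the bins of 1 Mb with most unmatched adult peaks, where 3 bins tied for the last place. Gene lists and marker genes needed mm9 gene positions and were not used. Interval code was tested on simulated data. Calculations used Python 3.11.15, numpy 2.4.6, pandas 2.3.3, scipy 1.17.1 and matplotlib 3.10.9.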

Additional observations from a re-analysis of the deposited data

Results flagged for a closer look

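Some H3K4me1 peaks lay outside chromosomes 1 to 19 and were left out of every share given above, although their numbers are above 3, the limit for a count of 0. On X there were 445 fetal and 15 adult peaks, 0.479% and 0.120% of the whole lists. On unplaced contigs there were 37 fetal and 6 adult peaks.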

How the results depend on the processing

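A value is given here where it left the 95% interval of the reported one, and the cause was not tested unless stated. No paired analysis was possible because the combined lists carry no value per replicate, and for the same reason no replicate was left out. Depth is unknown, which limits every share. All alternatives but 1 were planned, though with earlier results of these data known. The other was unplanned and also chosen after seeing the data. It kept each named peak and took only the better-scoring peaks of the other stage's list.

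Above the median score of both lists, fetal recovery was 9.46% and the differences between outer quintiles were 26.2 points for width, 27.7 for score and 10.8 for density. The difference by H3K4me3 was -1.64 points, opposite in sign to the reported 0.777, and 40.3% of unmatched adult peaks had a fetal peak within 1 kb. With equal numbers of top-ranked peaks (12502 per stage), recovery was 37.5%, unmatched adult peaks 43.2%, the differences 40.9 points for width, 50.8 for score, 17.3 for density and -1.60 for H3K4me3, and 15.0% of unmatched peaks had a fetal peak within 1 kb. These follow in part from the shorter fetal list.

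With peaks merged within 1 kb, recovery was 13.7%, unmatched adult peaks 13.2%, the differences 41.5, 41.7, 14.0 and 3.03 points for width, score, density and H3K4me3, and the share within 1 kb 50.2%. With an overlap of 50% of the shorter peak, recovery was 8.67%, unmatched adult peaks 16.1% and the share within 1 kb 67.1%. When a gap of up to 1 kb also counted, recovery was 16.7%, unmatched adult peaks 5.28%, and the differences 29.3, 30.1, 17.8 and -1.31 points. With 400 bp around the fetal midpoint, the differences were 16.0 points for width, 16.7 for score and 6.02 for density. The density difference was 8.96 points with a 10 kb and 7.68 with a 250 kb window, and 75.8% of unmatched adult peaks had a fetal peak within 5 kb.

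For the other marks, taking the midpoint of the H3K4me1 peak gave differences of 26.2 points for fetal H3K27ac and -6.69 for fetal H3K4me3 (reported: -0.541), recovered minus unrecovered. Above the median score of all lists these were 18.3 and -7.02 points, and for matched minus unmatched adult peaks 20.8 for adult H3K27ac and 0.322 for adult H3K4me3 (reported: 5.57). Adding X and Y, using H3K4me3 of the adult list or of both stages, or leaving out the 5 bins with most unmatched peaks left each value they bear on within its interval. Of 48 settings tried over the 14 named peaks, 36 gave the same number of matching peaks. A match was gained by 1 peak, the adult peak on chromosome 15, when a gap of up to 1 kb counted, and lost by 1, the fetal peak on chromosome 14, with only the adult peaks of at least the adult median score.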
